A study of Drosophila melanogaster with 12 samples.

Results

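Oxidative phosphorylation (OXPHOS) couples the oxidation of nutrients in mitochondria to the making of ATP. Here its nuclear genes are described by the PIWI-interacting RNAs (piRNAs) that their sequences gave in a Drosophila cell line. The genes were chosen by FlyBase symbol, as those beginning with ND-, COX and a digit, UQCR, ATPsyn, Sdh or Cyt-c, and genes of the mitochondrial genome were left out. Of 17469 genes counted by the authors 92 matched. Levels are in RPM, reads scaled to library size, and 65 of these genes had at least 1 RPM in at least 3 of the 12 libraries, as did 8246 genes in all. The 65 tested genes were 31 of complex I, 5 of complex II, 8 of complex III, 9 of complex IV, 11 of complex V and 1 for cytochrome c. The symbols and that minimum made the choice, which was done with earlier results of these data known.

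Complexes I and II pass electrons from NADH and succinate to ubiquinone, complex III passes them on to the small carrier cytochrome c, and complex IV hands them to oxygen. The proton gradient that complexes I, III and IV build drives complex V, the ATP synthase. piRNAs are small RNAs that guide Piwi, a nuclear silencing protein, and in somatic cells of the ovary some are made from messenger RNAs of genes. They are cut on the outer mitochondrial membrane by the endonuclease Zucchini, where Daedalus (Daed) and the RNA helicase Armitage (Armi) also act.

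The libraries hold 20 to 40 nt RNAs recovered with Piwi from the ovarian somatic cell line (OSC), 3 libraries in each of 4 groups. In the Daed experiment endogenous Daed was depleted by RNAi in all 6 libraries, and the cells received a plasmid for Flag-Daed deltaSAM (deltaSAM) or for Flag-Daed WT (Daed WT). In the Armi experiment endogenous Armi was depleted in all 6 libraries, and the cells received a plasmid for the Armi KEE mutant with a Flag tag (KEE) or for Armi WT-Flag (Armi WT). The sources used here do not spell out which residues KEE changes. All groups share 1 cell line, RNAi and transient transfection, and no library without a rescue plasmid was analysed here. Nothing in the labels says whether replicates were separate cultures, so p-values measure only the spread between these libraries. Fewer piRNAs of a gene per cell and fewer cells that make them cannot be told apart. A value in RPM is a level of piRNA reads and not of messenger RNA or protein.

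Depth lay between 1396369 and 3995009 reads a library, so 1 read was worth 0.250 to 0.716 RPM. The share of each library that fell in the gene table moved with the groups, at a mean of 58.0% with deltaSAM against 50.2% with Daed WT and 79.5% with KEE against 63.4% with Armi WT. The part this played in the changes was not tested. Replicate 3 of deltaSAM and replicate 3 of Armi WT stood apart from their groups. Their counts differed from those of the other replicates by a chi-square per degree of freedom of 4.94 to 5.93, against 1.22 to 2.18 in the remaining pairs. Over the OXPHOS genes alone it was 1.35 to 2.02 against 0.501 to 1.82, and these ranges overlap. That value leaves out genes with few reads in a pair and used 26 to 58 of the 65 genes. In the pairs with replicate 3 of deltaSAM it used 29 and 26, so it says little about the low genes. Reads of daed were 28.9 to 32.3 RPM with deltaSAM and 27.6 to 32.1 RPM with Daed WT, and reads of armi were 1529.7 to 1582 RPM with KEE and 857 to 913 RPM with Armi WT. Reads of a plasmid and of the genomic copy are not told apart, so these values do not measure the knockdown. The summed RPM of 6 markers of ovarian somatic cells was 36473 to 38934 with deltaSAM and 33248 to 37138 with Daed WT. It was 21209 to 21637 with KEE and 34018 to 35637 with Armi WT. Most of it was flam and tj, at means of 8702 and 8669 RPM with KEE against 20852 and 12911 RPM with Armi WT. The markers zfh1 and Fas3 went the other way, at 3359 and 88.8 RPM with KEE against 508 and 17.3 RPM with Armi WT. With KEE 2 of the 6 rose and 3 fell (limma, adjusted p under 0.05). Of all tested genes 33.0% rose and 11.7% fell with KEE. Over 5 germline markers the sum was 17.4 to 34.2 RPM with deltaSAM, 15.8 to 19.4 with Daed WT, 13.3 to 13.8 with KEE and 19.3 to 22.2 with Armi WT. Of 3 blood cell markers, Hml had no read in either Daed group, and their sum was 27.9 to 31.6 RPM with KEE against 16.7 to 18.8 RPM with Armi WT, and 17.1 to 25.0 RPM with deltaSAM against 20.1 to 26.5 RPM with Daed WT. The part these markers played was not tested.

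The nuclear OXPHOS genes were minor sources of piRNA reads. They made up 0.788% of the tested genes and 0.205% of the RPM in the gene table, and their median level was 6.74 RPM over the 12 libraries, against 8.20 RPM for the other tested genes. They are also short, with a median RefSeq span of 1.23 kb against 2.79 kb, so that per kb of span, introns included, the median was 5.49 RPM against 2.97 RPM. Reads were unevenly spread within the set. ATPsynC, Cyt-c-p and COX6B held 49.4% of the RPM of the 65 genes, and the 10 highest genes held 69.1%. Per kb of span ATPsynC led with 126 RPM, above 98.2% of the tested genes, followed by Cyt-c-p with 38.6, ND-23 with 37.2, COX7A with 32.8 and COX7B with 31.1 RPM. The 65 genes lie on X (11), 2L (12), 2R (12), 3L (13), 3R (15) and 4 (2). Of the 27 genes below the minimum 9 had no read in any library, the highest value in 1 library was 1.63 RPM, and 23 were paralogs whose symbol adds an L to that of another gene. Cyt-c-d, the second cytochrome c gene, was among the 27. Just outside the minimum lay ND-13B and SdhBL, with 0.784 and 0.588 RPM in their third-highest library. Just inside it were ND-B14.5A with 1.31 and ND-B15 with 1.62 RPM.

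**Figure D1:**
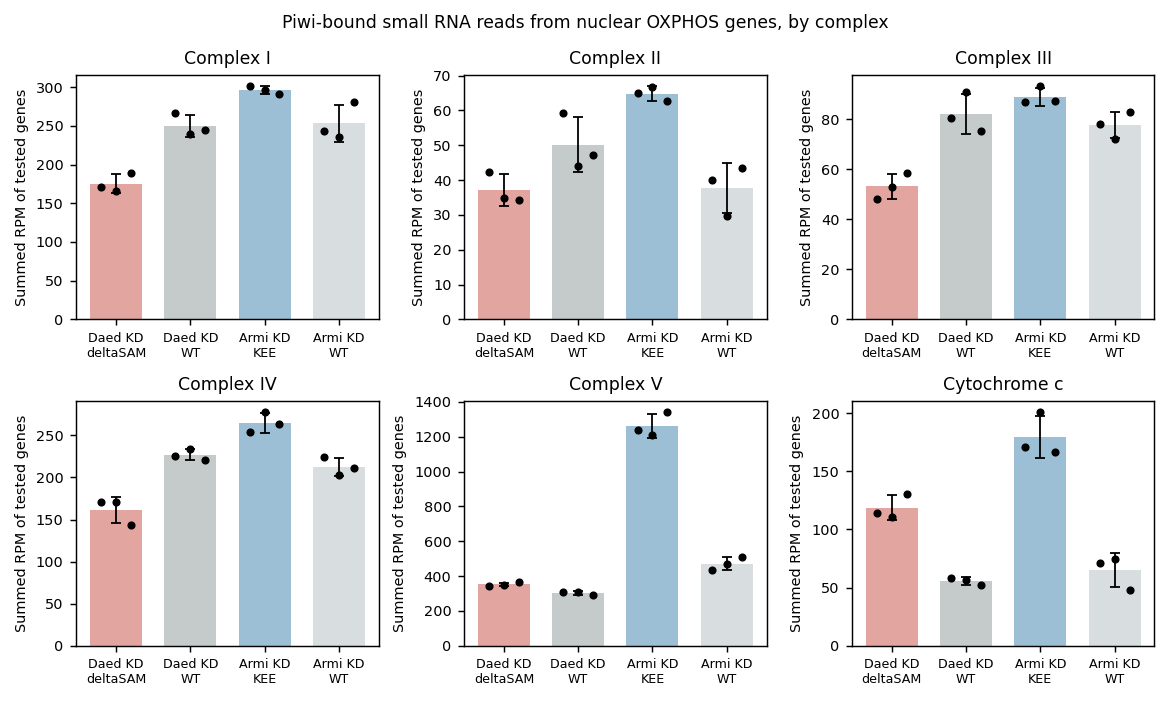
Summed RPM of the tested genes of each complex in each library (points), with the group mean (bar) and SD (error bar, n = 3), from left to right deltaSAM, Daed WT, KEE and Armi WT. Complexes I to IV lie lower with deltaSAM than with Daed WT, while complex V reaches 1339.7 RPM with KEE and at most 509 RPM with Armi WT.

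With deltaSAM, piRNA reads fell at many electron transport genes and rose at a few OXPHOS genes of high RPM. Of the 65 genes 24 fell (36.9%), where 18.9% of all tested genes fell, and 4 rose (6.15%), where 17.3% of all tested genes rose (limma on log2(RPM + 1), Benjamini-Hochberg over all tested genes, adjusted p under 0.05). The 4 were Cyt-c-p, ATPsynC, ATPsynbeta and COX7A. The median log2 fold change was -0.38, against -0.10 over all tested genes. Summed over all 65 genes the reads were 892, 881 and 921 RPM with deltaSAM and 999.6, 972 and 929 RPM with Daed WT, and every deltaSAM sum lay below the 3 Daed WT sums. As a share of the RPM in the gene table these were 0.155% with deltaSAM and 0.193% with Daed WT. Libraries of the 2 groups did not overlap for 30 of 65 genes, where 40.6% of all tested genes did not.

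The falls were more frequent than among other genes of like level, which is a description and not a test. Weighted to the same spread over 10 equal bins of mean RPM, the other genes fell in 20.3% and rose in 11.7% of cases, with a median log2 fold change of -0.17. In the lower 5 bins, up to 8.16 RPM, 16 of 39 OXPHOS genes fell (41.0%) and 0 rose, against 14.1% and 3.70% of the other genes. In the upper 5 bins 8 of 26 fell (30.8%) and 4 rose (15.4%), against 23.4% and 31.1%. The split of calls depended on scaling. Scaled to the gene-table total 1 rose and 32 fell of 70, where 10.4% of all tested genes rose and 25.6% fell. Centred on the median gene 4 rose and 20 fell, where 24.7% rose and 11.2% fell. Leaving out replicate 3 of deltaSAM and of Armi WT left the counts at 4 and 24. DESeq2 called 4 rises and 13 falls, where 15.8% of all tested genes rose and 10.3% fell. Of the 24 falls 22 had groups without overlap, 16 had a log2 fold change of at least 1 in size, and the median was 14.0 reads per Daed WT library.

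With KEE, genes of every complex rose, 6 of them in complex V, and no OXPHOS gene fell. Of the 65 genes 15 rose (23.1%), where 33.0% of all tested genes rose, and 0 fell, where 11.7% of all tested genes fell. At an unadjusted p under 0.05 limma gave 16 rises and 3 falls. The share of rises was thus no higher than the background, and the other genes weighted to like level rose in 31.7% and fell in 9.71% of cases. The median log2 fold change was 0.25, against 0.30 over all tested genes. Summed reads of the 65 genes were 2117, 2146 and 2211 RPM with KEE and 1093, 1084 and 1176 RPM with Armi WT. Without ATPsynC the mean sum was 1123 RPM with KEE and 783 RPM with Armi WT. As a share of gene-table RPM the 65 genes were 0.271% with KEE and 0.176% with Armi WT. Libraries did not overlap for 26 of 65 genes, where 58.0% of all tested genes did not.

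The absence of falls with KEE held only in some alternatives of scaling, test, pseudocount, filter and libraries. Centred on the median gene 13 rose and 10 fell, where 20.2% of all tested genes rose and 20.4% fell. With TMM factors in edgeR 13 rose and 10 fell, where 25.2% rose and 22.0% fell. DESeq2 called 10 rises and 9 falls, where 18.6% rose and 20.3% fell, and at the gene-table total 13 of 70 rose and 6 fell, where 18.3% rose and 15.0% fell. After centring the median log2 fold change was -0.05 over all tested genes and -0.10 over the OXPHOS genes. edgeR with the library sizes of the authors called 16 rises and 3 falls, where 37.1% rose and 14.2% fell. The falls under centring and TMM were COX6B, COX7C, COX8, ND-15, ND-30, ND-ACP, ND-AGGG, ND-B14.5B, UQCR-11 and UQCR-C2. Without replicate 3 of deltaSAM and of Armi WT 17 rose and 0 fell.

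**Figure D2:**
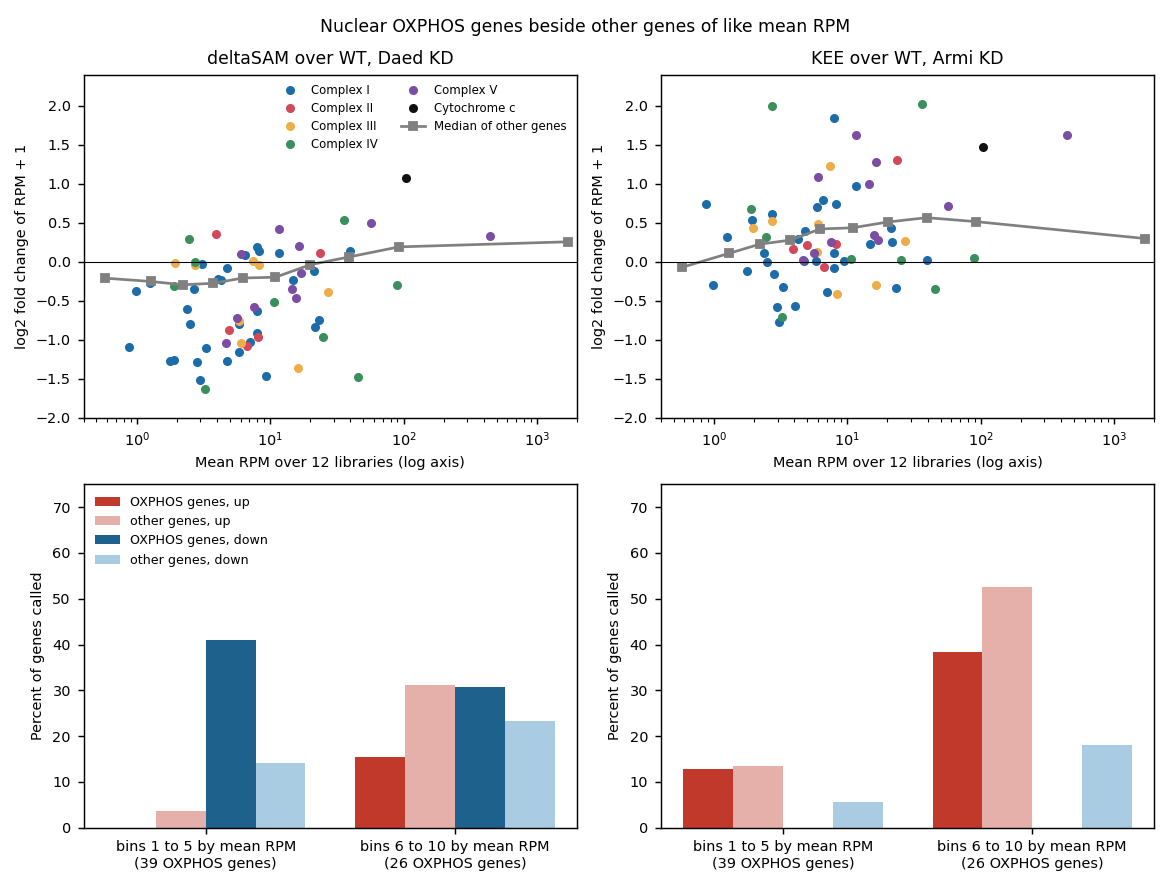
Upper panels show the log2 fold change of RPM + 1 of each of the 65 genes against its mean RPM (log axis), coloured by complex, with the median of the other tested genes per bin in grey. Lower panels show the percent called up or down for OXPHOS and other genes in the lower and upper 5 bins. With deltaSAM 41.0% of the OXPHOS genes in the lower bins fell against 14.1% of the others, and with KEE no OXPHOS gene fell.

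Complex I, the NADH dehydrogenase and entry point of the chain, was the largest group, with 31 of the 65 tested genes. Of these 31 genes 13 fell (41.9%) and 0 rose with deltaSAM, where 36.9% of the 65 genes fell. Of all tested genes 18.9% fell and 17.3% rose with deltaSAM. With KEE 4 of the 31 rose (12.9%), below the 33.0% of all tested genes, and 0 fell. Median centring and TMM factors each gave 2 rises and 5 falls with KEE, and DESeq2 gave 1 rise and 4 falls. With deltaSAM there were 12 falls after centring, 13 with TMM factors and 7 with DESeq2. At an unadjusted p under 0.05 limma gave 0 rises and 16 falls with deltaSAM, and 5 rises and 1 fall with KEE. The summed reads were 171, 166 and 189 RPM with deltaSAM, below all of 267, 240.0 and 244 RPM with Daed WT. They were 301, 296 and 291 RPM with KEE, above all of 243, 236 and 281 RPM with Armi WT. Of the 7 core genes, which have counterparts in the bacterial enzyme, 2 fell with deltaSAM, ND-75 and ND-30, and 0 were called with KEE. Of the 24 accessory genes 11 fell with deltaSAM and 4 rose with KEE.

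ND-23, a core iron-sulfur subunit of the arm that leads to ubiquinone, had the highest RPM of complex I, also per kb of span, and lies at 3R:15836048-15837117 (dm6). ND-23 had 38.8, 31.6 and 49.1 RPM in the deltaSAM libraries, against 42.3, 28.7 and 37.2 RPM in the Daed WT libraries. It had 39.0, 50.0 and 37.8 RPM in the KEE libraries, against 40.7, 43.7 and 39.2 RPM in the Armi WT libraries. All 4 groups overlapped, with log2 fold changes of 0.13 ± 0.16 (SE, adjusted p = 0.557) and 0.03 ± 0.16 (SE, adjusted p = 0.911). ND-ACP had 15.3, 16.3 and 16.0 RPM in the deltaSAM libraries, against 33.6, 22.6 and 26.5 RPM in the Daed WT libraries. This gene encodes the mitochondrial acyl carrier protein, which also works in fatty acid and iron-sulfur cluster synthesis. Every deltaSAM library lay below every Daed WT library, and the log2 fold change was -0.74 ± 0.18 (SE, adjusted p = 0.00135). It had 24.4, 22.2 and 18.8 RPM in the KEE libraries, against 23.2, 29.1 and 31.3 RPM in the Armi WT libraries. These overlapped, with a log2 fold change of -0.34 ± 0.18 (SE, adjusted p = 0.122).

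ND-B16.6 had 12.3, 14.7 and 12.1 RPM in the deltaSAM libraries, against 25.5, 19.9 and 27.2 RPM in the Daed WT libraries. The gene encodes the fly counterpart of human GRIM-19, an accessory subunit. The 2 groups did not overlap and the log2 fold change was -0.83 ± 0.19 (SE, adjusted p = 0.00107). It had 30.0, 24.6 and 25.5 RPM in the KEE libraries, against 20.9, 17.1 and 30.5 RPM in the Armi WT libraries. The log2 fold change with KEE was 0.25 ± 0.19 (SE, adjusted p = 0.311). Of its RefSeq span 15.9% overlaps CG3847, which had more reads and rose in both comparisons, by 0.62 and 0.99 on the log2 scale. The strand used in counting is not stated, so reads of overlapping genes cannot be told apart.

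The other complex I genes that fell with deltaSAM had lower levels, and the means given here are deltaSAM against Daed WT. ND-75, the large iron-sulfur subunit near the NADH site, had 4.47 RPM against 9.22 (log2 fold change -0.92 ± 0.27, SE, adjusted p = 0.00795). ND-30, a core subunit of the arm that leads to ubiquinone, had 3.55 RPM against 8.30 (-1.03 ± 0.25, SE, adjusted p = 0.00204). Among the accessory subunits ND-PDSW had 2.96 RPM against 7.78 (-1.15 ± 0.31, SE, adjusted p = 0.0042), ND-42 had 1.90 RPM against 5.92 (-1.27 ± 0.36, SE, adjusted p = 0.00609) and ND-19 had 1.70 RPM against 4.55 (-1.11 ± 0.34, SE, adjusted p = 0.0117). ND-B14.5B had 0.930 RPM against 4.36 (-1.51 ± 0.33, SE, adjusted p = 6.61e-04). The remaining falls were ND-MWFE, ND-B14.7, ND-B14, ND-ASHI and ND-B15, with log2 fold changes of -1.47, -1.28, -1.26, -1.28 and -1.10. Genes with more reads overlap ND-MWFE (TppII, 31.2% of its span) and ND-B14 (CG12942, 10.6%). ND-B15 had 0 reads in the 3 deltaSAM libraries and 1, 3 and 2 reads in the Daed WT libraries, and set against a floor of 3 reads over the group it was at least 2.07-fold lower.

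With KEE the 4 rises of complex I were accessory subunits. ND-B18 had 19.6, 16.8 and 21.5 RPM with KEE and 3.40, 5.14 and 5.65 RPM with Armi WT, so that all KEE libraries were higher (log2 fold change 1.84 ± 0.30, SE, adjusted p = 8.61e-06). The means with KEE against Armi WT were 17.5 RPM against 8.51 for ND-18 (0.97 ± 0.23, SE, adjusted p = 7.56e-04) and 14.0 RPM against 8.08 for ND-SGDH (0.74 ± 0.28, SE, adjusted p = 0.0299). They were 9.90 RPM against 5.26 for ND-MLRQ (0.79 ± 0.27, SE, adjusted p = 0.0187), whose human counterpart is now placed in complex IV. None of these 4 was called with deltaSAM. The NADH-binding core subunit ND-51 and its neighbour ND-24 had 3.75 RPM against 2.10 and 1.48 RPM against 0.923 with KEE and Armi WT, with adjusted p = 0.203 and 0.573.

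Complex II, succinate dehydrogenase, also belongs to the citric acid cycle and is encoded wholly in the nucleus. Of its 5 tested genes 3 fell (60.0%) and 0 rose with deltaSAM, where 18.9% of all tested genes fell and 17.3% rose. With KEE 1 rose (20.0%) and 0 fell, where 33.0% of all tested genes rose and 11.7% fell. The complex split by subunit. SdhA, the flavoprotein that oxidises succinate (2R:19391863-19395971), had 43.3, 41.1 and 40.8 RPM in the KEE libraries, against 18.0, 15.0 and 15.8 RPM in the Armi WT libraries. The groups lay far apart and the log2 fold change was 1.31 ± 0.17 (SE, adjusted p = 1.71e-07). With deltaSAM it had 18.2, 17.4 and 21.5 RPM, against 21.4, 14.9 and 16.5 RPM with Daed WT, and the groups overlapped (0.12 ± 0.17, SE, adjusted p = 0.622).

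The other subunits of complex II were called as falls with deltaSAM, SdhB only narrowly. SdhD had 8.82, 5.99 and 3.87 RPM in the deltaSAM libraries, against 12.2, 14.9 and 10.7 RPM in the Daed WT libraries. SdhD is 1 of the membrane anchors, and its log2 fold change was -0.96 ± 0.27 (SE, adjusted p = 0.0065). It had 6.11, 9.20 and 7.26 RPM in the KEE libraries, against 6.53, 5.14 and 7.16 RPM in the Armi WT libraries. That change was 0.22 ± 0.27 (SE, adjusted p = 0.545). SdhC, the second anchor, averaged 4.08 RPM against 10.00 with deltaSAM and Daed WT (-1.07 ± 0.31, SE, adjusted p = 0.00658). SdhB, the iron-sulfur subunit, averaged 3.60 RPM against 6.98 (-0.87 ± 0.35, SE, adjusted p = 0.0498), and its 2 groups overlapped. Complex II had 2 falls with deltaSAM after centring, with TMM factors, with DESeq2 and with a replicate block. Without replicate 1 of Daed WT it had 1. SdhC and SdhB were not called with KEE (adjusted p = 0.886 and 0.647). Sdhaf3, an assembly factor caught by the symbol rule, was called in neither comparison.

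Complex III, the cytochrome bc1 complex, had 8 tested genes. Of these 3 fell with deltaSAM (37.5%, against 18.9% of all tested genes) and 1 rose with KEE (12.5%, against 33.0%). With deltaSAM there were 2 falls after centring, 2 with TMM factors and 1 with DESeq2. With KEE each of these settings gave 1 rise and 2 falls. The core proteins UQCR-C1 and UQCR-C2 face the matrix. UQCR-C2 had 6.47, 7.62 and 8.84 RPM in the deltaSAM libraries, against 21.4, 22.6 and 19.3 RPM in the Daed WT libraries. Every deltaSAM library was lower, with a log2 fold change of -1.36 ± 0.21 (SE, adjusted p = 7.35e-06). It had 14.1, 18.4 and 15.5 RPM in the KEE libraries, against 19.9, 14.6 and 26.7 RPM in the Armi WT libraries. That change was -0.30 ± 0.21 (SE, adjusted p = 0.266), and the groups overlapped. UQCR-C1 had 20.0, 21.2 and 25.4 RPM in the deltaSAM libraries, against 30.6, 33.7 and 24.3 RPM in the Daed WT libraries. The log2 fold change of -0.39 ± 0.16 (SE, adjusted p = 0.0613) did not pass. It had 33.2, 32.7 and 26.5 RPM in the KEE libraries, against 27.9, 24.4 and 24.1 RPM in the Armi WT libraries. Its change with KEE, 0.26 ± 0.16 (SE, adjusted p = 0.206), did not pass either.

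UQCR-14, a small subunit bound near cytochrome b, fell to 2.82 RPM with deltaSAM, against 6.99 RPM with Daed WT (-1.03 ± 0.30, SE, adjusted p = 0.0072). Its whole span lies within CG32576, which had more reads, so its value is uncertain. Cyt-c1 encodes cytochrome c1, the haem protein that hands electrons to cytochrome c, and Cyt-c1L is its paralog. Cyt-c1 had 11.2, 12.4 and 15.8 RPM with KEE, all above 4.96, 4.71 and 5.27 RPM with Armi WT (1.23 ± 0.26, SE, adjusted p = 2.87e-04), and its change with deltaSAM was 0.01 ± 0.26 (SE, adjusted p = 0.984). Cyt-c1L fell with deltaSAM to 4.81 RPM, against 8.29 RPM (-0.76 ± 0.30, SE, adjusted p = 0.0489). How reads that match both paralogs were assigned is not stated.

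Cytochrome c, the mobile carrier between complexes III and IV, rose in both comparisons through Cyt-c-p (2L:16719932-16722644), the gene active in most tissues. Cyt-c-p had 114, 111 and 131 RPM in the deltaSAM libraries, against 58.6, 56.3 and 52.3 RPM in the Daed WT libraries. It had 171, 201 and 167 RPM in the KEE libraries, against 71.6, 74.9 and 48.2 RPM in the Armi WT libraries. In both experiments the mutant libraries lay above all WT libraries. The log2 fold changes were 1.07 ± 0.13 (SE, adjusted p = 1.70e-07) with deltaSAM and 1.48 ± 0.13 (SE, adjusted p = 1.06e-10) with KEE, and their difference of 0.40 ± 0.19 (SE, adjusted p = 0.0864) did not pass. It was the largest deltaSAM rise of the 65 genes.

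Complex IV, cytochrome c oxidase, held genes that moved in opposite directions. Of its 9 genes 4 fell (44.4%) and 1 rose (11.1%) with deltaSAM, where 18.9% of all tested genes fell and 17.3% rose. With KEE 2 rose (22.2%) and 0 fell, where 33.0% of all tested genes rose and 11.7% fell. At an unadjusted p under 0.05 limma gave 2 rises and 2 falls with KEE. COX7A had 34.1, 26.7 and 38.1 RPM in the deltaSAM libraries, against 26.5, 20.4 and 20.1 RPM in the Daed WT libraries. All deltaSAM libraries were higher, with a log2 fold change of 0.54 ± 0.16 (SE, adjusted p = 0.00977). It had 63.5, 71.4 and 81.4 RPM in the KEE libraries, against 15.9, 15.8 and 18.8 RPM in the Armi WT libraries. The KEE libraries stood well above those of Armi WT, with the largest KEE change of the 65 genes on the log2(RPM + 1) scale, 2.03 ± 0.16 (SE, adjusted p = 1.08e-11). As a ratio of mean RPM the change was 4.27-fold, below the 7.26-fold of COX7CL. COX7A lies at 3R:8339944-8341043 and encodes a small subunit whose mammalian relatives take part in joining complexes into supercomplexes.

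COX7C, another small subunit (2R:10048353-10050066), went the other way. COX7C had 15.9, 20.1 and 22.6 RPM in the deltaSAM libraries, against 54.0, 60.7 and 53.0 RPM in the Daed WT libraries. The groups were wide apart, with a log2 fold change of -1.48 ± 0.15 (SE, adjusted p = 3.41e-09). It had 46.7, 52.7 and 40.6 RPM in the KEE libraries, against 60.3, 52.7 and 65.2 RPM in the Armi WT libraries. That change was -0.34 ± 0.15 (SE, adjusted p = 0.0562). Of its span 15.6% overlaps oys, which had far more reads and rose with deltaSAM by 0.48 and with KEE by 0.90 on the log2 scale. COX7B had 14.1, 20.7 and 9.94 RPM in the deltaSAM libraries, against 25.5, 34.2 and 27.2 RPM in the Daed WT libraries. The groups did not overlap (-0.96 ± 0.20, SE, adjusted p = 3.62e-04). It had 29.5, 31.9 and 23.8 RPM in the KEE libraries, against 32.4, 26.1 and 25.2 RPM in the Armi WT libraries. These overlapped (0.02 ± 0.20, SE, adjusted p = 0.941). COX8 averaged 0.941 RPM against 4.97 with deltaSAM and Daed WT (-1.63 ± 0.32, SE, adjusted p = 1.86e-04). That was the deepest fall of the 65 genes on the log2(RPM + 1) scale, whereas the ratio of mean RPM was 0.189 for COX8, 0.162 for ND-ASHI and 0.150 for ND-B14, and ND-B15 had no read with deltaSAM.

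COX6B, the subunit on the outer face of the complex near the cytochrome c site, had the highest RPM of complex IV, though per kb of span COX7A, COX7B and COX7C were higher. COX6B had 90.5, 82.8 and 62.4 RPM in the deltaSAM libraries, against 93.8, 98.8 and 95.2 RPM in the Daed WT libraries. All deltaSAM libraries lay below those of Daed WT. The log2 fold change was -0.30 ± 0.12 (SE, adjusted p = 0.0463), a call that was lost in 12 alternatives. It had 92.7, 94.4 and 89.9 RPM in the KEE libraries, against 95.1, 89.5 and 83.2 RPM in the Armi WT libraries. With KEE the change was 0.05 ± 0.12 (SE, adjusted p = 0.77), and it was -0.30 after median centring and also with TMM factors. Of its span 81.9% overlaps CG18809, so its reads are uncertain. COX7CL, the paralog of COX7C, averaged 6.32 RPM against 0.871 with KEE and Armi WT (1.99 ± 0.45, SE, adjusted p = 5.20e-04). It averaged 2.08 RPM against 1.65 with deltaSAM and Daed WT (0.00 ± 0.45, SE, adjusted p = 0.997). Of the COX7CL span 2.47% overlaps sel, which had more reads. COX4, COX5A and COX5B were not called in either comparison.

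**Figure D3:**
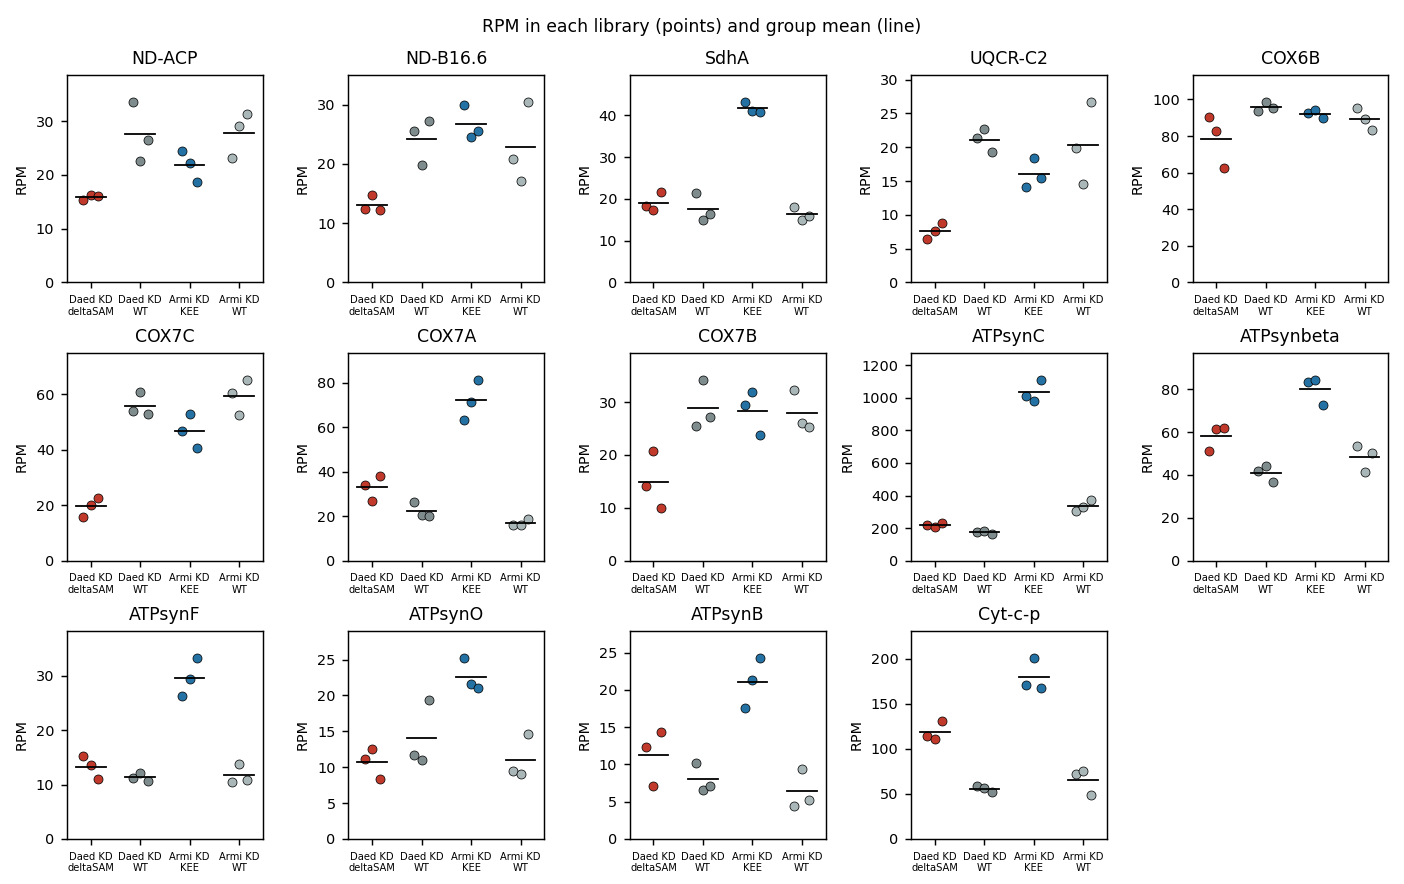
RPM in each library of the 14 genes that were called without overlap of the groups and reached 20 RPM in the higher group, from left to right deltaSAM, Daed WT, KEE and Armi WT, with the group mean as a line and an axis of its own for each gene. COX7C and UQCR-C2 are lower in all deltaSAM libraries than in all Daed WT libraries, and ATPsynC, SdhA and COX7A are higher in all KEE libraries than in all Armi WT libraries.

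Complex V, the ATP synthase, had 6 rises and 0 falls with KEE among 11 genes, also 0 falls at an unadjusted p under 0.05. The 54.5% that rose stood against 33.0% of all tested genes. In the bins of mean RPM that hold these genes, 18.0% to 58.8% of the other genes rose with KEE. The 54.5% lay within that range, which is too wide to tell whether the share was above that of genes of like level. With deltaSAM 2 rose (18.2%) and 1 fell (9.09%), where 17.3% of all tested genes rose and 18.9% fell. ATPsynC (3R:31216145-31219630), which encodes the subunit of the rotating membrane ring, dominated the complex. ATPsynC had 219, 209.6 and 230.3 RPM in the deltaSAM libraries, against 176, 181 and 165 RPM in the Daed WT libraries. It had 1012, 981 and 1111 RPM in the KEE libraries, against 303, 328 and 374 RPM in the Armi WT libraries. No library of either mutant overlapped its WT, and the log2 fold changes were 0.33 ± 0.09 (SE, adjusted p = 0.00369) and 1.63 ± 0.09 (SE, adjusted p = 2.95e-15). Its share of the reads of the 65 genes was 24.5% with deltaSAM, 18.0% with Daed WT, 47.9% with KEE and 29.9% with Armi WT. Without it complex V summed to 132 RPM with deltaSAM, 128 with Daed WT, 228 with KEE and 136 with Armi WT.

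ATPsynbeta had 51.1, 61.5 and 61.8 RPM in the deltaSAM libraries, against 41.8, 44.1 and 36.5 RPM in the Daed WT libraries. ATPsynbeta encodes the catalytic subunit of the F1 head. All deltaSAM libraries were higher, with a log2 fold change of 0.50 ± 0.13 (SE, adjusted p = 0.00334). It had 83.4, 84.4 and 72.8 RPM in the KEE libraries, against 53.5, 41.5 and 50.5 RPM in the Armi WT libraries. These too did not overlap (0.72 ± 0.13, SE, adjusted p = 3.48e-05), and the difference between the experiments did not pass (0.22 ± 0.18, SE, adjusted p = 0.369). DESeq2 did not call the rise of ATPsynbeta with KEE, and gave 4 rises with KEE in complex V. The rises of ATPsynC, ATPsynbeta and COX7A with deltaSAM were not called when scaled to the gene-table total.

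The other complex V rises with KEE lay in the membrane part and the peripheral stalk that holds the head still. ATPsynF, of the membrane part, had 26.3, 29.5 and 33.3 RPM with KEE and 10.4, 13.7 and 10.9 RPM with Armi WT (1.28 ± 0.19, SE, adjusted p = 2.47e-06). ATPsynO, which joins the stalk to the head, had 25.2, 21.6 and 21.0 RPM with KEE and 9.40, 8.99 and 14.7 RPM with Armi WT (1.00 ± 0.23, SE, adjusted p = 6.85e-04). ATPsynB, the long subunit of the stalk, had 17.5, 21.4 and 24.3 RPM with KEE and 4.44, 9.42 and 5.27 RPM with Armi WT (1.63 ± 0.27, SE, adjusted p = 9.92e-06). In all 3 genes every KEE library was higher. ATPsynE of the membrane part averaged 9.53 RPM against 3.95 with KEE and Armi WT (1.09 ± 0.30, SE, adjusted p = 0.00329).

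With deltaSAM these genes were not called, at 15.3, 13.6 and 11.0 RPM against 11.2, 12.1 and 10.7 RPM with Daed WT for ATPsynF (0.20 ± 0.19, SE, adjusted p = 0.451). For ATPsynO they were 11.2, 12.5 and 8.28 RPM with deltaSAM and 11.7, 11.0 and 19.3 RPM with Daed WT (-0.34 ± 0.23, SE, adjusted p = 0.264). For ATPsynB they were 12.3, 7.08 and 14.4 RPM with deltaSAM and 10.2, 6.62 and 7.16 RPM with Daed WT (0.42 ± 0.27, SE, adjusted p = 0.243). The fall was ATPsynCF6, coupling factor 6 of the stalk, with 1.88 RPM against 4.93 (-1.04 ± 0.31, SE, adjusted p = 0.00972). The head and central stalk subunits ATPsyngamma and ATPsyndelta were called in neither comparison.

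**Figure D4:**
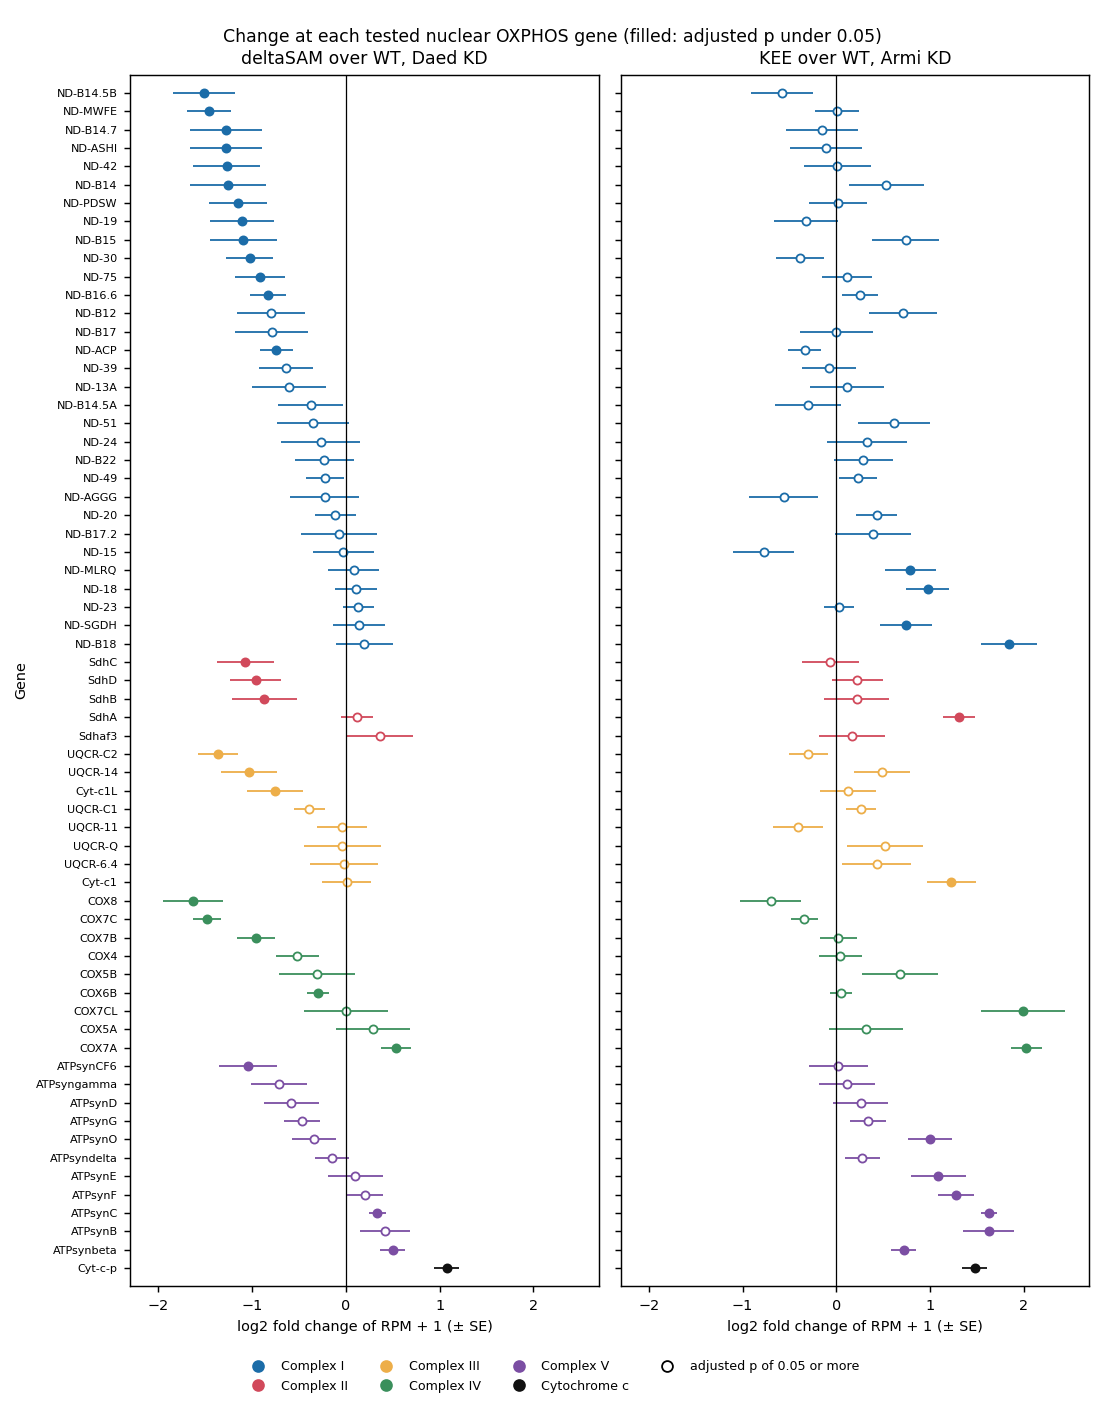
Log2 fold change of RPM + 1 with its standard error for each of the 65 genes, ordered by complex, for deltaSAM over Daed WT and for KEE over Armi WT. Filled points passed an adjusted p under 0.05, and 13 genes of complex I fell with deltaSAM and 4 rose with KEE.

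The 2 experiments share no libraries, and the test of the difference between their effects found 25 genes with a higher effect of KEE (38.5%), where 29.4% of all tested genes had one. None had a lower effect, where 11.0% of all tested genes had one, also none at an unadjusted p under 0.05, against 34 higher. edgeR with TMM factors called 10 higher and 0 lower, where 16.9% and 17.3% of all tested genes were. DESeq2 called 3 higher and 0 lower, where 12.8% and 16.2% were. Centring on the median gene gave 5 higher and 2 lower, ND-15 and ND-23, where 12.9% and 20.3% were. The median difference was 0.88, against 0.44 over all tested genes. The 25 were 10 of complex I, 2 of complex II, 4 of complex III, 4 of complex IV and 5 of complex V. COX7A differed by 1.49 ± 0.23 (SE, adjusted p = 4.29e-06), ATPsynC by 1.29 ± 0.13 (SE, adjusted p = 1.34e-09), SdhA by 1.19 ± 0.24 (SE, adjusted p = 1.87e-04) and COX7C by 1.14 ± 0.21 (SE, adjusted p = 4.72e-05). The 4 genes that rose with deltaSAM also rose with KEE, 6.15% of the 65 genes, where 9.18% of all tested genes rose in both. Of the 24 that fell with deltaSAM 0 were called with KEE, where 4.21% of all tested genes fell in both and 5.32% fell with deltaSAM and rose with KEE. This 0 depended on the processing. After centring, with TMM factors and with DESeq2, 7 of the 24 were called as falls with KEE, and 5 at the gene-table total. The 7 were COX6B, COX7C, COX8, ND-30, ND-ACP, ND-B14.5B and UQCR-C2. With the scaling unchanged COX7C and COX8 fell with a pseudocount of 10, in edgeR with the authors' library sizes and with 1 knockdown alone. COX7C also fell at 10 RPM or more and without replicate 2 of Armi WT or of KEE. The reverse, a rise with deltaSAM and a fall with KEE, was called for 0 of the 65 genes and 2.91% of all tested genes. Of the rest 11 genes rose with KEE and were not called with deltaSAM, and 26 were called in neither.

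**Figure D5:**
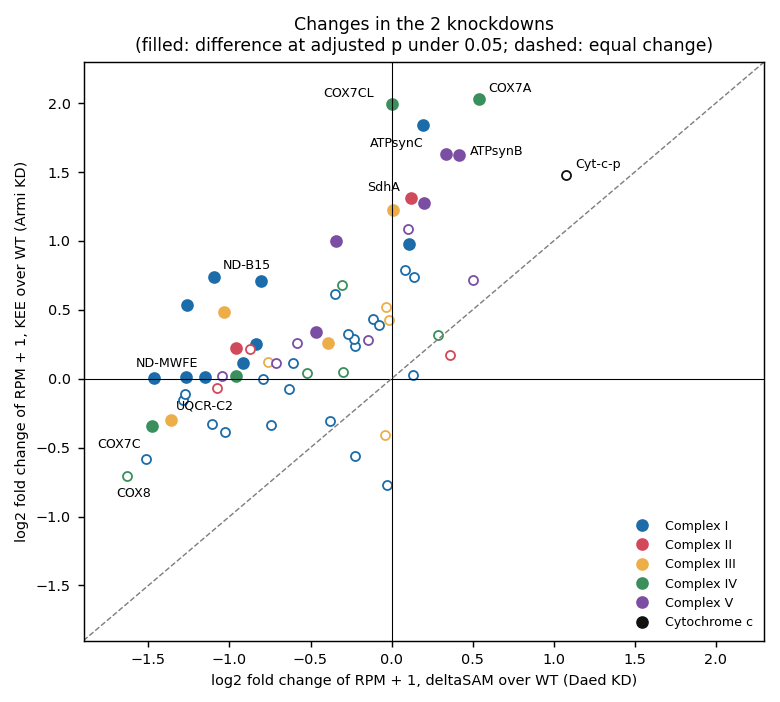
Log2 fold change of RPM + 1 with KEE (vertical axis) against that with deltaSAM (horizontal axis) for the 65 genes, coloured by complex. Filled points have a difference between the effects at an adjusted p under 0.05, and all 25 of them lie above the dashed line of equal change.

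Overlap with other genes touched 35 of the 65 genes by RefSeq span, 13 of them with a gene of higher RPM. Among the 30 without overlap 2 rose and 12 fell with deltaSAM, and 5 rose and 0 fell with KEE. Leaving out the 13 gave 4 rises and 19 falls with deltaSAM and 13 rises and 0 falls with KEE among 52 genes. Of all tested genes 17.3% rose and 18.9% fell with deltaSAM, and 33.0% rose and 11.7% fell with KEE.

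Genes around the complexes were read from lists outside the symbol rule. Their counts stand beside shares over all tested genes of 17.3% up and 18.9% down with deltaSAM, and 33.0% up and 11.7% down with KEE, and in lists this short a count near those shares is no result about the list. Among 6 further nuclear subunits with other names 2 fell with deltaSAM and 2 rose with KEE. Of these blw, which encodes the alpha subunit of the F1 head, averaged 18.5 RPM with deltaSAM against 29.4 RPM with Daed WT, and 42.9 RPM with KEE against 28.3 RPM with Armi WT. Its log2 fold changes were -0.68 ± 0.20 (SE, adjusted p = 0.00863) and 0.65 ± 0.20 (SE, adjusted p = 0.00878), where its partner ATPsynbeta rose in both. The complex IV subunits levy and cype changed as well, levy by -0.66 ± 0.26 with deltaSAM (adjusted p = 0.0461) and cype by 0.56 ± 0.23 with KEE (adjusted p = 0.0426). Of 10 tested assembly factors 1 rose and 2 fell with deltaSAM, and 2 rose and 0 fell with KEE. Surf1, an assembly factor of complex IV, rose in both, by 0.63 and 1.13, and Cox10, needed for its haem, fell by 0.67 with deltaSAM on the log2 scale.

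The citric acid cycle and pyruvate dehydrogenase, which feed the chain with NADH and succinate, had 7 rises and 1 fall among 15 tested genes with deltaSAM, where 17.3% of all tested genes rose and 18.9% fell. The median log2 fold change was 0.31, against -0.10 over all tested genes. With KEE 9 rose and 3 fell, where 33.0% rose and 11.7% fell, and the median was 0.66 against 0.30. Several genes of this list had high RPM, and the list was not weighted to like level. In bins 8 to 10 of mean RPM, from 27.3 RPM upward, 29.5%, 42.1% and 51.8% of the genes outside the 65 rose with deltaSAM. In the same bins 59.3%, 58.8% and 52.6% of them rose with KEE. Scsalpha1, a subunit of succinyl-CoA synthetase, had 84.9 RPM with deltaSAM against 31.1 RPM with Daed WT (1.40 ± 0.14, adjusted p = 3.74e-09), and Mdh2, malate dehydrogenase, was the gene that fell (-0.69 ± 0.19, adjusted p = 0.00531). With KEE kdn, citrate synthase, had 36.5 RPM against 11.9 RPM with Armi WT (1.55 ± 0.23, adjusted p = 1.98e-06). The 3 falls with KEE were muc, Idh3g and mAcon1, and muc and Idh3g had the highest RPM of the list. The means with KEE against Armi WT were 665 RPM against 1743 for muc (-1.39 ± 0.08, adjusted p = 2.52e-14). They were 459 RPM against 775 for Idh3g (-0.74 ± 0.10, adjusted p = 4.79e-07) and 105 RPM against 127 for mAcon1 (-0.27 ± 0.11, adjusted p = 0.0425). No test compared this list with the 65 genes. Against the shares over all tested genes, of 6 carriers of the inner membrane 2 rose and 1 fell with deltaSAM. With KEE 4 of the 6 rose and 0 fell. The ADP/ATP carrier sesB changed by -0.27 ± 0.09 with deltaSAM (adjusted p = 0.0207) and by 0.96 ± 0.09 with KEE (adjusted p = 3.91e-10). Of 9 genes listed for control of mitochondrial gene expression or mitochondrial quality 2 rose and 1 fell with deltaSAM, and 4 rose and 0 fell with KEE. The single fall was park, the ubiquitin ligase Parkin (-1.46 ± 0.30, adjusted p = 2.92e-04).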

How the data were processed

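RNA of 20 to 40 nt bound to Piwi was sequenced. The gene table deposited by the authors holds RPM, reads scaled to library size, per the file headers. STAR, HTSeq, BDGP6 and dm6 are named without versions in the submitters' processing notes. Strand and the handling of reads with several matches are not given in the sources used here. Whole reads were recovered from 100% of the values above 0, within 0.01 reads, and 0 value columns were left unmapped. The transposon table was not used. Symbols were matched by gene identifier for 99.3% of genes, and RefSeq gave the dm6 spans.

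Genes with at least 1 RPM in at least 3 libraries were tested with limma-trend on log2(RPM + 1), all 12 libraries in 1 fit of 4 group means, two-sided, with Benjamini-Hochberg adjustment over all 8246 genes at 0.05. The fold change understates changes of low genes. Values in every library are given for called genes without overlap between groups and with at least 20 RPM in the higher group, for the 2 genes of highest mean RPM per complex, and for cytochrome c. Values of Cyt-c1, ND-B18 and the library values of a few other genes were added after they had been seen. The genes and lists were chosen with earlier results of these data known. The 10 bins of mean RPM describe other genes and are no test. Floors cover counting error only. Alternatives were pseudocounts of 0.1 and 10, no filter, a filter at 10 RPM, a replicate block, gene-table totals, median centring, 1 knockdown alone, each library left out, and edgeR and DESeq2 on the recovered reads. Scripts were tested on simulated data. edgeR with the authors' library sizes called 15.7% of tested genes up and 15.5% down with deltaSAM, and 37.1% up and 14.2% down with KEE. The tests used edgeR 4.0.16, limma 3.58.1 and DESeq2 1.42.0 under R 4.3.3. Tables and plots were made in Python 3.11.15 with pandas 2.3.3, numpy 2.4.6, matplotlib 3.10.9 and scipy 1.17.1.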

Additional observations from a re-analysis of the deposited data

Results flagged for a closer look

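The effect of KEE over Armi WT differed from that of deltaSAM over Daed WT at 25 of the 65 genes, by the limma test of the difference itself at an adjusted p under 0.05. Each value here is the KEE effect minus the deltaSAM effect in log2 fold change, and all were positive. In complex I the differences were ND-18 0.87, ND-75 1.03, ND-B16.6 1.08, ND-PDSW 1.17, ND-42 1.28, ND-MWFE 1.47, ND-B12 1.51, ND-B18 1.65, ND-B14 1.79 and ND-B15 1.84. In complex II they were SdhD 1.18 and SdhA 1.19. In complex III they were UQCR-C1 0.65, UQCR-C2 1.06, Cyt-c1 1.22 and UQCR-14 1.52. In complex IV they were COX7B 0.98, COX7C 1.14, COX7A 1.49 and COX7CL 1.99. In complex V they were ATPsynG 0.81, ATPsynF 1.07, ATPsynB 1.21, ATPsynC 1.29 and ATPsynO 1.34. Of all tested genes 29.4% had a higher effect of KEE.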

How the results depend on the processing

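Alternatives changed 1 choice each, except that edgeR with TMM factors and DESeq2 change the test and the scaling together and 1 setting leaves out 2 libraries. Most of the 612 comparisons of the 17 named genes across alternatives kept their direction and side of the threshold (569), 24 newly passed, 16 no longer passed and 3 reversed. The reversals were COX6B with KEE, whose log2 fold change became -0.30 after median centring, -0.30 in edgeR with TMM factors and -0.38 with DESeq2. With deltaSAM 1 gene rose at the gene-table total, and 11 fell of 30 tested at 10 RPM or more and 13 with DESeq2. Falls with KEE, 0 in the reported test, were 3 with a pseudocount of 10, 1 at 10 RPM or more, 6 at the gene-table total, 10 centred, 3 in edgeR with the authors' library sizes, 10 with TMM factors, 9 with DESeq2 and 3 with 1 knockdown alone. A higher effect of KEE than of deltaSAM was called for 5 genes centred, 10 with TMM factors and 3 with DESeq2, and a lower one for 2 genes centred. The cause was not tested. Leaving out each library in turn gave 4 to 4 rises and 19 to 26 falls with deltaSAM, 13 to 15 rises and 0 to 1 falls with KEE, and 19 to 28 higher and 0 to 0 lower effects. COX7C was the fall, without replicate 2 of Armi WT or of KEE. Replicate numbers did not pair the libraries (Pearson r of deviations across genes -0.01 to 0.06 for equal numbers), and a replicate block gave 4 rises and 22 falls with deltaSAM, 15 and 0 with KEE and 24 and 0 for the difference. Leaving out replicate 3 of deltaSAM and of Armi WT together, chosen after seeing the data, gave 4 and 24, 17 and 0, and 26 and 0. DESeq2 gave no adjusted p for 2 genes with deltaSAM and 3 for the difference. Depth limits the lower genes, since 18 of the 24 falls had under 20 RPM in the higher group.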
